A study of Homo sapiens with 94 samples.

Results

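Mesothelial lineage markers are the genes by which a pathologist or a cell biologist recognises the mesothelium, the flat epithelium that lines the pleura, the pericardium and the peritoneum. The 8 genes described here are MSLN, CALB2, WT1, ITLN1, MUC16, UPK3B, PDPN and THBD. They were chosen by symbol from a table of 20239 human genes measured by RNA-seq, and each of the 8 was found in the table and was tested. The tumors were subcutaneous xenografts of NCI-H226, an established human line of malignant pleural mesothelioma with a deletion of NF2, grown in female CB17 SCID mice. Mice received a single oral dose of K-975 at 30, 100 or 200 mg/kg, the vehicle alone (ethanol, Solutol and glucose), or no treatment.

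K-975 is a small molecule that binds covalently in the lipid pocket of the TEAD transcription factors and blocks their palmitoylation. There were 3 studies, which took tumors 1 h, 3-6 h or 24 h later. In the 1 h and 24 h studies every group held 5 tumors, other than the 24 h vehicle group with 4. In the 3-6 h study there were 5 untreated tumors, and the remaining treatments held 10 each, split over cages of 5 animals. The labels do not give the sampling time, 3 h or 6 h, of each of those cages. The dosing volume was 20 mL/kg for vehicle and for 200 mg/kg, and 10 mL/kg for the lower doses. Each treatment at 1 h and 24 h had its own cage, so effects of cage and of treatment cannot be told apart in those studies, and time and study coincide. NCI-H226 is a single line in an immunodeficient host, so all 94 libraries share 1 tumor genotype.

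Of the 94 libraries, 91 had between 11344 and 11665 genes at an FPKM of at least 1. The other 3 had 702, 7196 and 8531 such genes and are left out of the values below. They were a 30 mg/kg and a 100 mg/kg tumor at 24 h and a 200 mg/kg tumor at 1 h. FPKM count fragments per kilobase of transcript relative to all fragments mapped in the library, so levels of different genes can be set side by side, although the libraries were enriched with capture probes whose efficiency differs between genes. Differences between groups are on the scale of log2(FPKM + 1) and come from limma, with p-values adjusted over all 13036 genes tested and a threshold of 0.05.

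The mesothelium makes a gliding surface by secreting glycosaminoglycans and by carrying a coat of mucins and glycoproteins. MSLN (mesothelin) is a lipid-anchored surface glycoprotein, and MUC16 (the CA125 antigen) is the very large transmembrane mucin that it binds. PDPN (podoplanin) is a sialomucin of mesothelial and lymphatic endothelial cells and a ligand of the platelet receptor CLEC-2, and UPK3B belongs to the uroplakin family of membrane proteins. CALB2 (calretinin) is a cytoplasmic calcium-binding protein of the EF-hand type, and ITLN1 (intelectin-1, also called omentin) is a secreted lectin that binds microbial glycans. WT1 is a zinc-finger transcription factor of the embryonic coelomic lining that stays on in mesothelium. THBD (thrombomodulin) binds thrombin and turns it toward the activation of protein C, an anticoagulant step. Antibodies to calretinin, WT1, podoplanin and thrombomodulin are in common use to tell mesothelioma from carcinoma.

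All of the 8 genes were transcribed in these tumors, at levels that spanned a wide range. CALB2 stood highest, with a mean of 613 FPKM (SD 93.1, n = 91) and a range from 404 to 819, which placed it at rank 81 of the 13036 genes. ITLN1 had a mean of 271 and a median of 107 FPKM, and MSLN a mean of 261 and a median of 255. PDPN followed at 57.7 FPKM (SD 6.82), WT1 at 29.6 (SD 4.51) and THBD at 19.7 (SD 4.53). MUC16 was low at 4.45 FPKM (SD 1.83). UPK3B was lowest at 1.61 FPKM (SD 0.908), listed at 0 in 3 libraries and at 1 FPKM or more in 67 of the 91. The lowest CALB2 value lay above the highest MSLN value, 365 FPKM, and the lowest MSLN value, 173 FPKM, lay above the highest PDPN value, 73.1 FPKM. The ranges of every other pair of neighbours in this order overlapped. They overlapped by little for PDPN (lowest 40.9) and WT1 (highest 41.8) and for THBD (lowest 10.1) and MUC16 (highest 10.3).

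**Figure D1:**
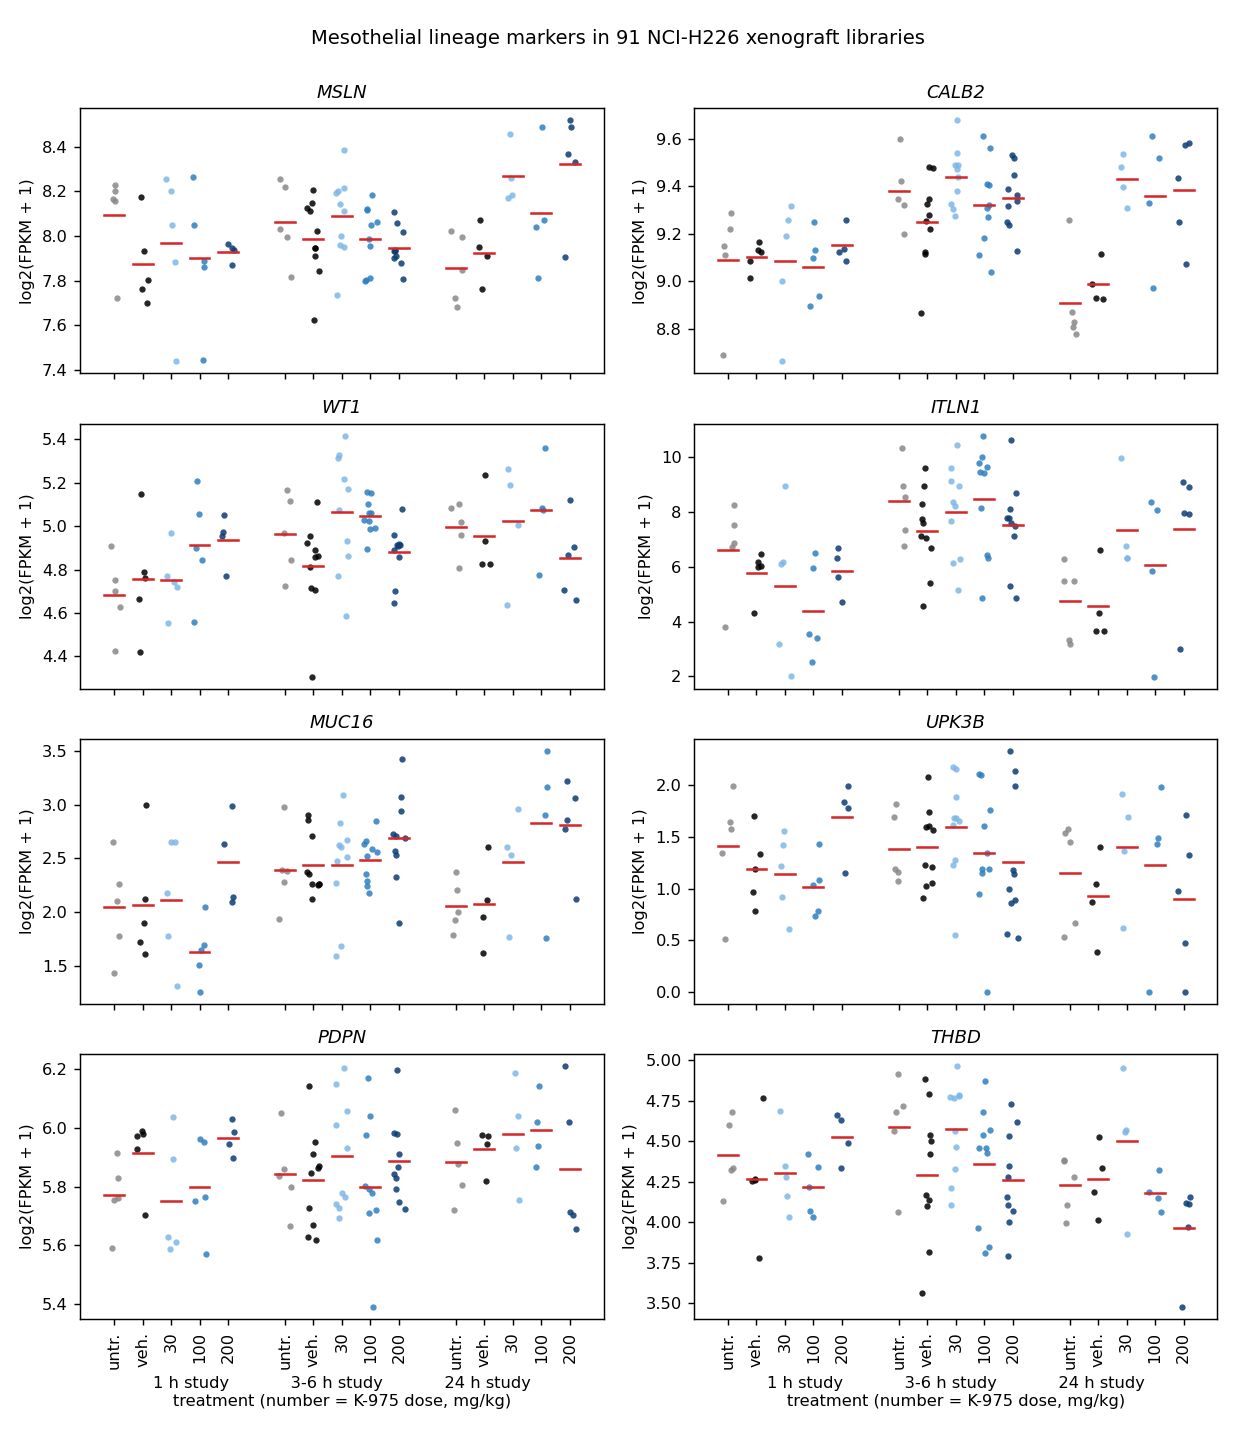
Level of each of the 8 genes as log2(FPKM + 1) in 91 tumors, by study and treatment (untr., untreated; veh., vehicle; numbers, K-975 dose in mg/kg). Each point is 1 tumor, red lines are group means of the plotted values, and each panel has its own axis; ITLN1 spans values from 2.99 to 1773 FPKM, whereas MSLN, CALB2, WT1 and PDPN each stay within a range of about 2-fold.

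These 8 genes were chosen as mesothelial markers, so their presence is not an independent check of the labelled origin of the tumor. Markers of carcinoma were set beside them. Of 12 carcinoma and squamous markers listed, 10 did not pass the filter on low values, among them EPCAM, CEACAM5, NKX2-1, TP63 and DSG3, and none of those 10 had a mean above 0.253 FPKM. The other 2 were present, DSC3 at a mean of 18.8 FPKM and PAX8 at 5.89 FPKM. Markers of host cell types were mixed. A mean of at least 1 FPKM was found for 5 of 6 fibroblast, 4 of 8 endothelial and 3 of 8 leukocyte markers, and for 0 of the adipocyte, skeletal muscle and erythroid markers. EMCN, TYROBP, HBB, LEP and CKM were listed at 0 in all 91 libraries, PECAM1 in 79 of them and CD3E in 90. The highest means were 594 FPKM for COL1A1, 292 for COL3A1, 138 for CD68, 66.3 for KDR and 32.6 for PDGFRB. In bulk tumors, fewer cells of a type and less RNA per cell cannot be told apart, and how reads from mouse cells were handled is not given in the sources used here.

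The 8 genes also differed in how much they varied among tumors of the same group. After removal of group means, the SD of log2(FPKM + 1) was 0.17 for PDPN and CALB2, 0.18 for WT1 and 0.19 for MSLN. It was 0.29 for THBD, 0.43 for MUC16, 0.51 for UPK3B and 1.84 for ITLN1. ITLN1 held rank 4 of 13036 genes by within-group SD. Its levels went from 2.99 FPKM, in a 24 h tumor given 100 mg/kg, to 1773 FPKM, in a 3-6 h tumor given the same dose, a ratio of 592. High and low ITLN1 tumors occurred within single groups. In the untreated 1 h group, 5 tumors ranged from 13.1 to 305 FPKM around a median of 115. In the untreated 3-6 h group they ranged from 108 to 1305 FPKM around a median of 375.

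ITLN1 (ENSG00000179914.4) lies on the minus strand of chromosome 1 at 160876539 to 160885170 (GRCh38), next to its close relative ITLN2 (ENSG00000158764.6) at 160945025 to 160954799 on the same strand. The sequence before the start of each gene is shown because this neighbouring pair gave the largest differences of the gene set. RefSeq (GRCh38.p14) holds a start for both, and each line gives 250 bases before the start and 20 after it. Capitals mark matches to GGAATG, the core of the TEAD motif, to TGANTCA, the AP-1 motif, and to TATAAA, on either strand.
ITLN1, chr1:160885161-160885430, minus strand: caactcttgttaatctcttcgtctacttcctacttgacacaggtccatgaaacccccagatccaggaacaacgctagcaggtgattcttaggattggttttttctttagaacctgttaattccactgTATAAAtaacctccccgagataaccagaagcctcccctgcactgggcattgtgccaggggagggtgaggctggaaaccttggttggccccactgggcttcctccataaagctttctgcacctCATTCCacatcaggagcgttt
ITLN2, chr1:160954790-160955059, minus strand: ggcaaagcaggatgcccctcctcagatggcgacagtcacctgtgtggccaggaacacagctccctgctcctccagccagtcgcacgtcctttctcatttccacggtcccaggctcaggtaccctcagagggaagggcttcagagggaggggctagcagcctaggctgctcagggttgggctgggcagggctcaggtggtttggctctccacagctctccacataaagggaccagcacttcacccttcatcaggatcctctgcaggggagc
The ITLN1 window held GGAATG once, on the opposite strand and across the start itself, and TATAAA once. The ITLN2 window held none of the 3 motifs.

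Among all 35116 RefSeq windows of 300 bases (250 before and 50 after a start), 14% held GGAATG, 7.71% TGANTCA and 11.5% TATAAA on either strand. The table had windows for 5 of the 8 genes. It had none for MSLN, CALB2 and THBD. GGAATG was found for ITLN1 and at start 4 of the 4 listed for WT1, which is shown because it held both the TEAD and the AP-1 letters. Start 4, at 32400400, lies inside the WT1 locus of 32387775 to 32435630, and starts 1 to 3 held neither motif.
WT1, start 4, chr11:32400381-32400650, minus strand: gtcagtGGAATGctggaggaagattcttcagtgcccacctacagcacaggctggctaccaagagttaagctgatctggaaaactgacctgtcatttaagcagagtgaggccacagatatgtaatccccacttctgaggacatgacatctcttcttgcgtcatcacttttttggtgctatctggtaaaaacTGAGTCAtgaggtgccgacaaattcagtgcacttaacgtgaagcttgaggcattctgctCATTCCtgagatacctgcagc
TGANTCA was also found at start 2 of the 2 listed for MUC16. None of the PDPN or UPK3B windows held GGAATG or TGANTCA. These are matches of letters and not measured binding sites.

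Among the 9 comparisons of a dose with vehicle, calls among the 8 genes were made 24 h after 200 mg/kg, where MSLN and CALB2 were higher than in vehicle tumors. Of the 13036 genes tested, 7.41% passed the threshold in this comparison in either direction, 3.8% as higher and 3.61% as lower, against 2 of the 8 markers as higher and 0 as lower. With no adjustment, p was under 0.05 for 4 of the 8 markers and 21.9% of all genes. The median log2 difference was 0.18 over the 8 genes and 0.04 over all genes tested.

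MSLN (ENSG00000102854.15, chromosome 16, 760762 to 768865, plus strand) had 239.8, 246.5, 216 and 268 FPKM in the 4 vehicle tumors and 365, 239, 358, 321 and 329 FPKM in the 5 tumors given 200 mg/kg. Tumors 1, 3, 4 and 5 of the dosed group lay above every vehicle tumor, and tumor 2 lay among them. The difference was 0.40 on the log2 scale (SE 0.13, 95% confidence interval 0.14 to 0.65, adjusted p = 0.0414), a rise of the mean from 243 (SD 21.6) to 322 FPKM (SD 50.4).

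CALB2 (ENSG00000172137.18, chromosome 16, 71358716 to 71390438, plus strand) behaved alike in these tumors. Vehicle tumors had 485, 506, 486 and 554 FPKM, and those given 200 mg/kg had 766, 537, 691, 608 and 761 FPKM. Again 4 of the 5 dosed tumors exceeded every vehicle tumor, with tumor 2 as the exception. The share of all genes with 4 of 5 dosed tumors above every vehicle tumor was not computed. This pattern, given for MSLN above and for ITLN1 and ITLN2 below, thus cannot be set against that share. The log2 difference of CALB2 was 0.39 (SE 0.11, 95% confidence interval 0.17 to 0.62, adjusted p = 0.0198). Both calls were close to the threshold. They were lost in a fit of only the 2 groups compared, with adjusted p-values of 0.0855 for MSLN and 0.0646 for CALB2 and 2.78% of all genes called. They were also lost with all 94 libraries in the fit, where limma called 0% of all genes and 592 had an unadjusted p under 0.05. Leaving out 1 tumor at a time gave adjusted p-values from 0.00609 to 0.151 for MSLN, which lost its call in 7 of 9 such fits, and from 0.00358 to 0.0851 for CALB2, which lost it in 4 of 9.

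ITLN1 and MUC16 had higher values in the same tumors but did not pass the threshold. ITLN1 had 11.6, 18.7, 11.7 and 96.5 FPKM in vehicle tumors and 478, 7.10, 243, 249 and 551 FPKM after 200 mg/kg. Tumors 1, 3, 4 and 5 exceeded all vehicle tumors and tumor 2 was below all of them. The log2 difference was 2.83 (SE 1.23, 95% confidence interval 0.38 to 5.27, adjusted p = 0.151). MUC16 (ENSG00000181143.15, chromosome 19, 8848844 to 8981342, minus strand) had 3.33, 2.87, 2.08 and 5.08 FPKM in vehicle tumors and 8.30, 3.34, 6.25, 5.83 and 7.37 FPKM after 200 mg/kg, a log2 difference of 0.73 (SE 0.28, adjusted p = 0.0983). Both RefSeq starts of MUC16 lie upstream of this locus, at 9065751 and 9010409, outside the locus that the table gives. The MUC16 level thus refers to that locus only and is less safely set beside the levels of other genes.

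Tumor 2 of the 200 mg/kg group had the lowest MSLN, CALB2, ITLN1 and MUC16 values of its group. A fit without it, singled out here after its values were seen, called 11.8% of all genes. Leaving out the lowest tumor raises these 4 differences in any case, so the p-values of this fit are not tests of the 4 genes. In that fit the 4 genes passed the threshold, with log2 differences of 0.50 for MSLN (adjusted p = 0.00609), 0.47 for CALB2 (adjusted p = 0.00358), 3.92 for ITLN1 (adjusted p = 0.0265) and 0.90 for MUC16 (adjusted p = 0.0318). That tumor also had the fewest genes at 1 FPKM or more in its group, 11424 against 11555 to 11613 in the other 4, and vehicle tumors had 11356 to 11422. The part of this difference in the result was not tested. Its relative depth was 1.03, against 0.776 to 1.22 in the other 4 tumors.

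**Figure D2:**
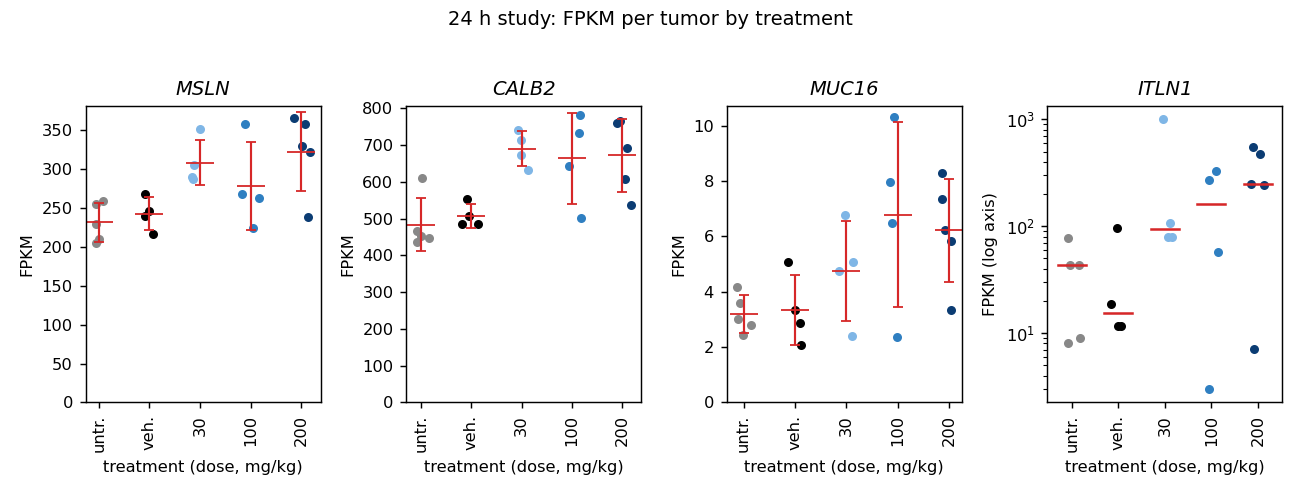
FPKM of MSLN, CALB2, MUC16 (linear axes from 0) and ITLN1 (log axis) in the 22 tumors of the 24 h study used here, by treatment (untr., untreated; veh., vehicle; numbers, dose in mg/kg). Points are tumors; red bars are mean and SD for the first 3 genes and the median for ITLN1, and in each panel the same tumor is the lowest of the 200 mg/kg group.

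The remaining 4 genes did not pass the threshold after 200 mg/kg at 24 h. THBD (ENSG00000178726.6, chromosome 20, 23045633 to 23049741, minus strand) had 21.99, 19.2, 15.2 and 17.2 FPKM in vehicle tumors and 16.3, 10.1, 14.7, 16.4 and 16.8 FPKM after the dose, with a log2 difference of -0.30 (SE 0.19, adjusted p = 0.373). WT1 (ENSG00000184937.13, chromosome 11, 32387775 to 32435630, minus strand) had a mean of 30.2 FPKM in vehicle and 28.1 FPKM in dosed tumors, and its 95% confidence interval ran from -0.34 to 0.14. For PDPN (ENSG00000162493.16, chromosome 1, 13583465 to 13617957, plus strand) the means were 59.9 and 57.8 FPKM, with an interval from -0.29 to 0.16. These 2 intervals leave out a change of the size seen for MSLN and CALB2 in the upward direction. UPK3B (ENSG00000243566.6, chromosome 7, 76510428 to 76516521, plus strand) was near 1 FPKM in both groups. Its interval from -0.70 to 0.65 includes changes of the size seen for MSLN and CALB2. The antisense gene WT1-AS overlaps WT1, and whether reads were counted by strand is not given in the sources used here.

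The lower doses at 24 h gave values on the same side for MSLN, CALB2, ITLN1 and MUC16, without a call. That side was not particular to these genes. Of the 8 genes, 8 were higher than vehicle at 30 mg/kg and 7 at 100 mg/kg, against 4 at 200 mg/kg. After 100 mg/kg, where 1.12% of all genes passed the threshold, 0 of the 8 markers did, with an unadjusted p under 0.05 for 2 of 8, beside 14.1% of all genes. CALB2 had 642, 733, 782 and 501 FPKM, a log2 difference from vehicle of 0.37 (SE 0.12, adjusted p = 0.102). MUC16 had 6.48, 10.3, 7.97 and 2.38 FPKM, a difference of 0.76 (SE 0.30, adjusted p = 0.213). ITLN1 had 269, 57.4, 332 and 2.99 FPKM. MSLN had 263, 268, 358 and 224 FPKM, and its difference ranged from 0.05 to 0.28 when single tumors were left out, without a call. In this group tumor 4 was the lowest for each of these genes, and below every vehicle tumor for ITLN1. A fit without tumor 4, likewise singled out after its values were seen, called 2.23% of all genes. The differences in that fit were 0.50 for CALB2 (adjusted p = 0.014) and 1.12 for MUC16 (adjusted p = 0.0324). Here too the lowest tumor was left out, which raises both differences in any case, so these p-values are not tests of the genes.

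After 30 mg/kg at 24 h, where 0.0384% of all genes passed, 0 of the 8 markers did, with an unadjusted p under 0.05 for 3 of 8, beside 10% of all genes. CALB2 had 742, 632, 714 and 673 FPKM and MSLN had 351, 287, 305 and 290 FPKM. All 4 tumors exceeded every vehicle tumor for both genes, as they did for 3.9% of all genes. The log2 differences were 0.44 for CALB2 (SE 0.12, adjusted p = 0.111) and 0.34 for MSLN (SE 0.13, adjusted p = 0.366). ITLN1 had 1003, 107, 78.9 and 79.2 FPKM, a difference of 2.79 (SE 1.29, adjusted p = 0.452). The values of the 3 doses share the 4 vehicle tumors and are not independent of each other.

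A linear trend with dose over vehicle and the 3 doses at 24 h, for which 5.61% of all genes passed the threshold, was called for 0 of the 8 genes. Slopes per 100 mg/kg on the log2 scale were 0.33 for MUC16 (SE 0.13, adjusted p = 0.115), 0.13 for CALB2 (adjusted p = 0.138), 0.13 for MSLN (adjusted p = 0.169) and -0.21 for THBD (adjusted p = 0.151). CALB2 had means of 690.3, 664 and 673 FPKM after 30, 100 and 200 mg/kg, which differed by less than their SDs of 47.9, 124 and 99.4 FPKM. THBD had means of 22.4, 17.2 and 14.9 FPKM in the same order, against 18.4 FPKM in vehicle tumors.

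Vehicle alone left no called difference in any of the 8 genes in any study, and 0% of all genes passed the threshold in each of the 3 comparisons of vehicle with untreated tumors by limma. An unadjusted p under 0.05 was found for 0 of the 8, and for 4.73%, 4.83% and 4.2% of all genes at 1 h, 3-6 h and 24 h. At 24 h, untreated tumors had 259, 229.7, 210.1, 254 and 205 FPKM of MSLN and 467, 611, 446, 454 and 438 FPKM of CALB2. With these 5 tumors in place of vehicle, MSLN and CALB2 were again called at 200 mg/kg, with log2 differences of 0.47 (adjusted p = 0.00864) and 0.48 (adjusted p = 0.00202), and CALB2 was also called at 100 mg/kg (0.45, adjusted p = 0.0167) and at 30 mg/kg (0.52, adjusted p = 0.0211). Against untreated tumors 8.31%, 1.99% and 0.353% of all genes were called at 200, 100 and 30 mg/kg.

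**Figure D3:**
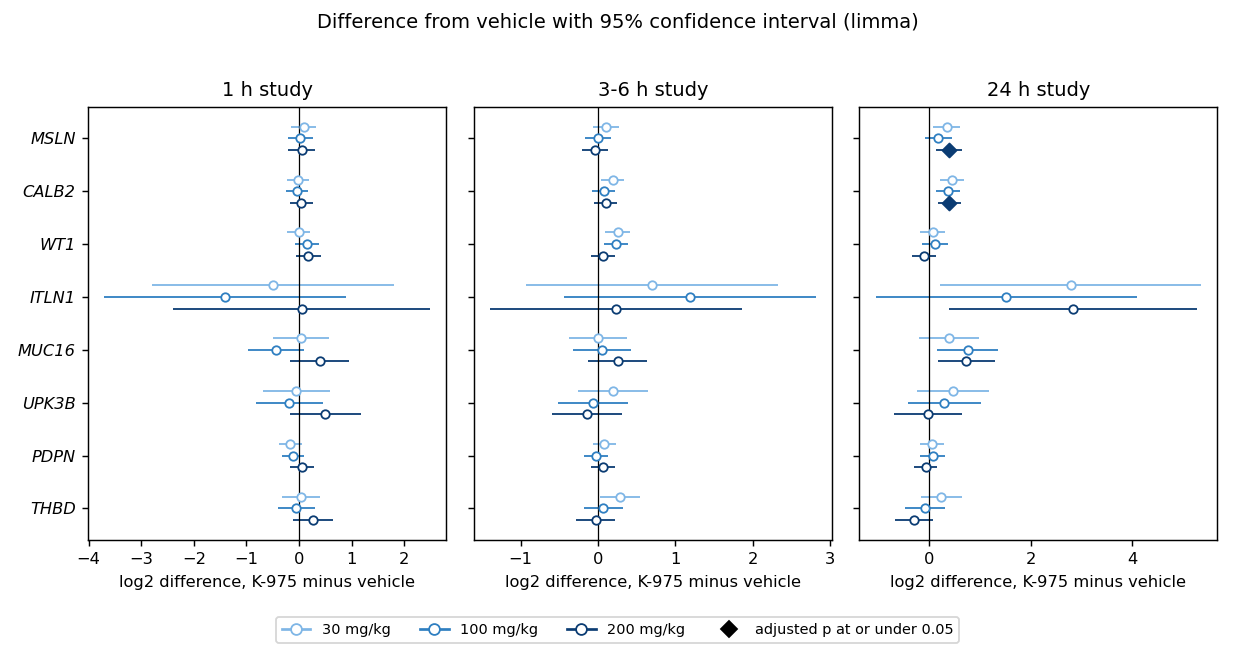
Log2 difference of each gene between K-975 and vehicle tumors in the 3 studies, with 95% confidence intervals from limma, by dose. Filled diamonds mark an adjusted p at or under 0.05, reached by MSLN and CALB2 at 200 mg/kg and 24 h; each panel has its own horizontal axis, and the intervals of ITLN1 are the widest.

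At 1 h, 0 of the 8 genes were called against vehicle at any dose. The share of all genes past the threshold was 0% at 30 and 200 mg/kg and 0.00767% at 100 mg/kg, and 0 of the 8 had an unadjusted p under 0.05, beside 4.38%, 4.97% and 3.34% of all genes at 30, 100 and 200 mg/kg. A dose trend at 1 h was called for 0% of all genes. Log2 differences at 200 mg/kg ran from 0.05 for CALB2 to 0.50 for UPK3B (SE 0.34). The 95% confidence interval for MSLN was -0.20 to 0.31 and that for CALB2 was -0.18 to 0.27.

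At 3-6 h, again 0 of the 8 genes were called, against 0.0153%, 0.43% and 0.069% of all genes at 30, 100 and 200 mg/kg. MSLN in the 10 vehicle tumors ran from 197 to 295 FPKM around a median of 252, and in the 10 tumors given 200 mg/kg from 223 to 275 FPKM around a median of 243. Its log2 difference of -0.04 had an interval from -0.21 to 0.13. CALB2 ran from 466 to 715 FPKM (median 614) in vehicle tumors and from 558 to 740 FPKM (median 652) after 200 mg/kg, with an interval from -0.05 to 0.25. WT1, CALB2 and THBD had an unadjusted p under 0.05 at 30 mg/kg, as did WT1 at 100 mg/kg, and their adjusted p-values ranged from 0.214 to 0.63. With no adjustment, 7.03%, 10.3% and 7.23% of all genes were under 0.05 at the 3 doses. A dose trend at 3-6 h was called for 0 of the 8 genes and 0.215% of all genes.

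The effect of 200 mg/kg at 24 h was compared with that at 3-6 h and at 1 h by interaction terms, for which 1.72% and 0.583% of all genes passed the threshold, and 0 of the 8 genes were called in either. The MSLN effect was larger at 24 h than at 3-6 h by 0.44 (SE 0.15, adjusted p = 0.119), and the CALB2 effect by 0.29 (SE 0.13, adjusted p = 0.257). A difference between the times is thus not shown for either gene.

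WT1 gave the only call among the 6 cage groups at 3-6 h. In cage group 9, given 30 mg/kg, its values were 36.3, 38.8, 35.0003, 41.8 and 39.2 FPKM, whereas the 10 vehicle tumors ran from 18.8 to 33.6 FPKM around a median of 28.1. All 5 tumors exceeded all 10 vehicle tumors, as they did for 0.123% of all genes, and 0.0307% of all genes were called there. The log2 difference was 0.48 (SE 0.10, adjusted p = 0.0252). Cage group 8, given the same dose, had 29.5, 32.7, 23.0, 26.3 and 28.04 FPKM, a difference of 0.03 (SE 0.10). The vehicle cage groups differed in WT1 by -0.25 (cage group 3 minus cage group 2, SE 0.11, adjusted p = 0.434), where 0.33% of all genes were called. In the other 5 cage groups given K-975, numbered 4 to 8, the share of all genes called was 0.00767%, 0.276%, 0%, 1.33% and 0%. The call was lost without vehicle tumor 2 of cage group 3 (adjusted p = 0.132) and without any of tumors 2, 3, 4 and 5 of cage group 9 (adjusted p from 0.0538 to 0.207). It was also lost with quantile normalization (adjusted p = 0.0514), in a fit of only the groups compared (adjusted p = 0.404) and with all 94 libraries, and limma called 0% of all genes in each of these fits, with an unadjusted p under 0.05 for 1153, 941 and 176 genes. Tumors 2 to 5 of cage group 9 also stood apart in composition, in that their 10 highest genes held 14.2% to 15.6% of the summed FPKM, against 15.7% or more in every other library of the 3-6 h study and 17.2% in tumor 1. The part of this in the result was not tested.

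The level of CALB2 and ITLN1 in control tumors was not the same in the 3 studies, a comparison added after the values had been seen. Untreated and vehicle tumors of the 3-6 h study, compared with those of the 24 h study, were higher in CALB2 by 0.37 on the log2 scale (SE 0.07, adjusted p = 0.00021) and in ITLN1 by 3.20 (SE 0.79, adjusted p = 0.00309), where 12.2% of all genes were called and 6.77% as higher. For the other 6 genes the adjusted p ranged from 0.23 to 0.601. Control tumors gave 0 calls among the 8 genes between 3-6 h and 1 h (2.16% of all genes) and between 24 h and 1 h (0.245%). CALB2 means in untreated tumors were 550.0 FPKM at 1 h, 668 at 3-6 h and 483 at 24 h, and in vehicle tumors 549.5, 612 and 508 FPKM. The 24 h tumors given 200 mg/kg, with CALB2 from 537 to 766 FPKM, thus lay within the span of the untreated tumors (587 to 775) and the vehicle tumors (466 to 715) of the 3-6 h study. For MSLN, 4 of the 5 tumors given 200 mg/kg, at 321 FPKM and above, lay beyond the highest control tumor of the 3-6 h study, 305 FPKM. Time after dosing and study cannot be told apart in these values.

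Tumor by tumor, MSLN, CALB2 and ITLN1 varied together within groups, as did ITLN1 and MUC16, whereas PDPN had values of r near 0 with each of the others. Pearson's r over 91 libraries, after removal of group means, was 0.76 for MSLN and ITLN1, 0.63 for MSLN and CALB2, 0.62 for CALB2 and ITLN1 and 0.59 for ITLN1 and MUC16. MUC16 had a lower r with MSLN (0.33) and with CALB2 (0.37). THBD had an r of 0.47 with ITLN1, and UPK3B an r of 0.44 with CALB2. WT1 ran against MSLN with an r of -0.46, and every r of PDPN lay between -0.16 and 0.02. These are descriptions over tumors that share libraries and depth. The number of genes at 1 FPKM or more in a library, also with group means removed, had an r of 0.78 with ITLN1, 0.55 with MSLN, 0.49 with THBD, 0.45 with CALB2, 0.45 with MUC16, -0.05 with WT1 and -0.02 with PDPN. Its part in these relations was not tested. Relative depth had an r of at most 0.19 with any of the 8 genes.

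**Figure D4:**
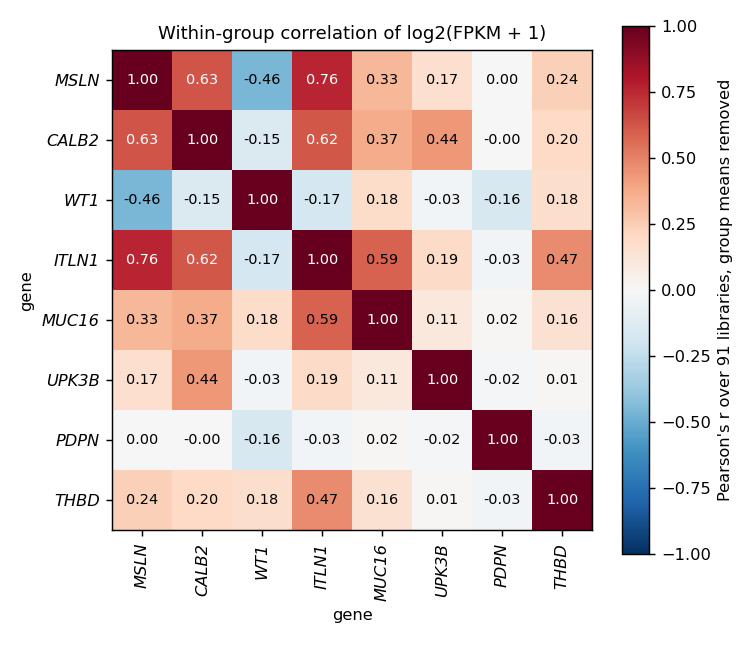
Pearson's r between the 8 genes over 91 libraries on log2(FPKM + 1) with group means removed; red is positive, blue negative. MSLN, CALB2, ITLN1 and MUC16 have positive values from 0.33 to 0.76 with each other. THBD with ITLN1 (0.47) and UPK3B with CALB2 (0.44) lie in the same range. WT1 and MSLN have -0.46, and the PDPN row stays near 0.

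Among 11595 other genes with a mean of at least 1 FPKM, the 3 most like ITLN1 over tumors were ABCA2 (r = 0.88), a lipid transporter, LRP1 (r = 0.88), an endocytic receptor, and ANOS1 (r = 0.88), an extracellular matrix protein. MSLN was most like PCDHGA10 (r = 0.80), a protocadherin, PATJ (r = 0.79), a scaffold protein of cell polarity, and ABCA2 (r = 0.78). CALB2 was most like HSD3B1 (r = 0.86), a steroid dehydrogenase, CARNS1 (r = 0.83), the carnosine synthase, and CYBRD1 (r = 0.82), a ferric reductase. MUC16 was most like KDR (r = 0.75), the VEGF receptor 2, the complement component C3 (r = 0.74) and SVEP1 (r = 0.73). THBD was most like APLP2 (r = 0.72), KCNMA1 (r = 0.69) and ELFN1 (r = 0.67), and WT1 was most like the condensin subunit SMC2 (r = 0.65), SH3KBP1 (r = 0.57) and SLC12A8 (r = 0.57). UPK3B and PDPN had no gene above 0.49 and 0.40, with TRAM1, LRRN4 and SEC14L1 first for UPK3B and DGCR8, PDGFA and TMEM127 first for PDPN.

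Of 13 relatives of the 8 genes by family, 4 passed the filter on low values. Of these, 1, ITLN2, was called at 24 h after 200 mg/kg, beside 7.41% of all genes. ITLN2 had 4.40, 1.90, 2.91 and 6.90 FPKM in vehicle tumors and 44.4, 3.95, 25.6, 30.0 and 33.0 FPKM after the dose. Tumors 1, 3, 4 and 5 exceeded all vehicle tumors, as for ITLN1. The log2 difference was 2.29 (SE 0.69, adjusted p = 0.0304). ITLN2 was 8.84% of ITLN1 in the median library, with a range from 0% to 181%. Both ends of that range came from libraries with little ITLN1, at 3.08 and 2.99 FPKM. The ratio was thus not fixed, but ITLN1 and ITLN2 rose and fell together over tumors, with an r of 0.87 after removal of group means. Of the 1431 different 50-base words in the ITLN1 transcripts of GENCODE 29, 9.5% also occur in those of ITLN2, and reads from such stretches cannot be assigned by sequence. The other relatives tested were MUC1 (0.25, adjusted p = 0.534), UPK3BL1 (0.60, adjusted p = 0.421) and CALB1 (-0.54, adjusted p = 0.144). The 9 relatives that did not pass the filter, among them MSLNL, UPK3A and the thrombomodulin relatives CD93 and CLEC14A, had means of at most 0.134 FPKM.

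A wider list of 25 other mesothelial genes changed in both directions at 24 h after 200 mg/kg, with 3 of 22 tested genes higher and 2 lower, against 3.8% and 3.61% of all genes. Its median log2 difference was 0.21, beside 0.04 over all genes tested. CLDN15, a claudin of tight junctions, rose by 0.76 (SE 0.15, adjusted p = 0.000681), and PTGIS, the prostacyclin synthase, rose by 0.74 (SE 0.14, adjusted p = 0.000194). KRT19, a simple-epithelial keratin, rose by 0.32 (SE 0.10, adjusted p = 0.0314). EFEMP1, which encodes the matrix protein fibulin-3, fell by 0.24 (SE 0.07, adjusted p = 0.016), and HEG1, a mucin-like membrane protein, fell by 0.26 (SE 0.07, adjusted p = 0.0138). At 100 mg/kg, CLDN15 (0.70, adjusted p = 0.012) and PTGIS (0.62, adjusted p = 0.0131) were called, beside 1.12% of all genes. At 30 mg/kg 0 of the 22 were, beside 0.0384% of all genes. KRT8, KRT18 and VIM, which encode intermediate filament proteins, had differences from -0.10 to -0.02 at 200 mg/kg with adjusted p-values from 0.632 to 0.913. DES, GPM6A and TCF21 did not pass the filter.

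**Figure D5:**
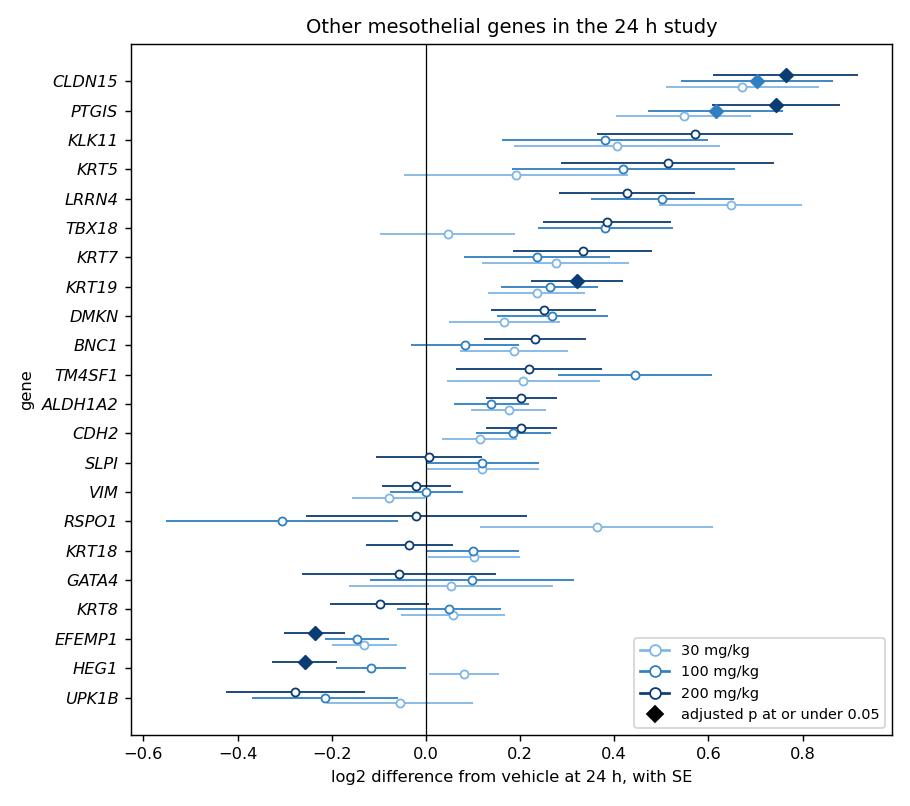
Log2 difference from vehicle at 24 h of 22 other mesothelial genes after 30, 100 and 200 mg/kg K-975, with SE, ordered by the value at 200 mg/kg. Filled diamonds mark an adjusted p at or under 0.05, reached at 200 mg/kg by CLDN15, PTGIS and KRT19 as higher and by EFEMP1 and HEG1 as lower.

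Among genes of coagulation and fibrinolysis, in which thrombomodulin acts, F3 and PLAUR fell at 24 h after 200 mg/kg. F3, the tissue factor that starts coagulation, fell by 1.43 (SE 0.39, adjusted p = 0.0162), and PLAUR, the urokinase receptor, fell by 0.72 (SE 0.22, adjusted p = 0.0328).

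Among partners and targets of WT1, 1 of 8 tested genes of a list of 11 was higher and 1 lower at 24 h after 200 mg/kg. Of all genes tested, 3.8% were called as higher and 3.61% as lower. With 8 genes, these counts are too few to set the list apart from that share. PODXL, a sialomucin that WT1 activates in the kidney, rose by 0.56 (SE 0.12, adjusted p = 0.00206), and by 0.65 after 100 mg/kg (SE 0.13, adjusted p = 0.00299). BASP1, a corepressor of WT1, fell by 0.39 (SE 0.10, adjusted p = 0.0121). Of 9 binding partners of PDPN and MSLN, 7 were tested and 0 were called, beside 7.41% of all genes. The tetraspanin CD9 had 0.23 (adjusted p = 0.0859), the linker protein RDX had 0.47 (adjusted p = 0.104), LGALS3 had 0.16 (adjusted p = 0.542), CD44 had -0.28 (adjusted p = 0.184), MSN had -0.13 (adjusted p = 0.328) and LGALS8 had -0.15 (adjusted p = 0.743). Of the carcinoma list, the desmocollin DSC3 was called as higher (0.29, SE 0.09, adjusted p = 0.0233) and PAX8 had 0.05 (adjusted p = 0.972).

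Markers of host cells were set beside these results. At 24 h the summed FPKM of 8 endothelial markers ran from 34.3 to 71.7 in vehicle tumors and from 31.8 to 95.4 after 200 mg/kg, with 4 of the 8 at a mean of at least 1 FPKM. The sum of 6 fibroblast markers ran from 873 to 1070 and from 774 to 1420, and that of 8 leukocyte markers from 148 to 227 and from 130 to 210. Each sum rested on few genes. Over the 91 libraries KDR had a mean of 66.3 FPKM, and no other endothelial marker was above 1.96. CD68 had 138 FPKM, and no other leukocyte marker was above 2.74. COL1A1 had 594 and COL3A1 292 FPKM, with PDGFRB next at 32.6. The sums are thus not measures of host cell content. The summed level of 4 adipocyte markers was at most 0.403 and that of 5 skeletal muscle markers at most 0.822 in these groups, and that of 4 erythroid markers was 0. Of the tested genes of these lists 0 were called in this comparison, beside 7.41% of all genes. Their part in the results was not tested.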

How the data were processed

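Gene levels were deposited by the authors as FPKM, 1 column for each of 94 libraries; read counts were not used here, so the depth is unknown and no counting interval was computed. RNA came from tumors in RNAlater (miRNeasy), and libraries were made with KAPA RNA HyperPrep and KAPA HyperCap target enrichment and read as paired ends. The submitters' processing notes name STAR and GRCh38; the quantifier and the annotation are not given in the sources used here. Starts in the table lay 1 base below those of GENCODE 29 for 86.8% of 20200 shared gene IDs, and 1 was added to print coordinates.

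Blank cells (32 in 21 genes) were read as 0. For 284 gene IDs with several entries the entry of highest mean was kept, which left 20239. Groups (19) came from the labels, and replicates were numbered within them. Libraries with fewer than 10000 genes at 1 FPKM or more (3) were left out. Genes at 1 FPKM or more in at least 4 of 91 libraries (13036) were tested with limma 3.58.1 (R 4.3.3; lmFit, eBayes with trend and robust) on log2(FPKM + 1), pseudocount 1, which understates changes of low genes. All groups entered 1 fit, cage groups of a dose at 3-6 h were averaged, and p-values were adjusted by Benjamini-Hochberg per comparison (threshold 0.05). The fit was tried on simulated data with independent normal noise, with changes only in genes of below-median within-group SD. That trial does not cover ITLN1, MUC16 or UPK3B, whose SD was higher, or relations between genes. P-values measure the spread between these tumors only. Genes named were the 8 markers, the 3 genes most like each, and from each list those past the threshold (up to 6) or the 3 of lowest p in each direction; others (IDs or values beyond this rule) were chosen after their values were seen. The 8 genes, the lists and the limit for left-out libraries were chosen with earlier results of these data known. Relative depth was read from the size of values of rarely detected genes. A gene of the coagulation list is not reported here, and no count or median is given for that list. Figures were drawn with matplotlib.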

Additional observations from a re-analysis of the deposited data

Results flagged for a closer look

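Chance meets Dixon's criterion in about 1 of 20 groups of normally distributed values. In 13 of 152 groups of 4 or 5 tumors checked (8.55%), 1 tumor stood apart from the others of its group by this criterion. For ITLN1 these were a 1 h tumor given 30 mg/kg at 497 FPKM, a 24 h tumor given 30 mg/kg at 1003 FPKM, a 24 h vehicle tumor at 96.5 FPKM and a 3-6 h tumor given 200 mg/kg (cage group 5) at 1571 FPKM, all high. For MUC16 they were a 1 h vehicle tumor at 6.98 FPKM and a 3-6 h vehicle tumor of cage group 2 at 6.47 FPKM, both high. CALB2 was high in a 24 h untreated tumor at 611 FPKM, and UPK3B was high in a 3-6 h tumor given 200 mg/kg (cage group 4) at 3.41 FPKM. The low ones were MSLN in a 1 h untreated tumor at 210.0 FPKM, PDPN in a 1 h vehicle tumor at 51.2 FPKM and WT1 in a 3-6 h tumor given 200 mg/kg (cage group 5) at 25.02 FPKM. THBD was low in a 3-6 h tumor given 100 mg/kg (cage group 6) at 13.4 FPKM and in one given 30 mg/kg (cage group 9) at 16.2 FPKM. The criterion was applied to FPKM and not to log2 values. ITLN1 values were skewed, with a mean of 271 and a median of 107 FPKM, so 8.55% cannot be read as an excess over 1 in 20.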

How the results depend on the processing

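At 24 h after 200 mg/kg, 2 markers and 7.41% of all genes were called. The count of markers became 0 with all 94 libraries (0% of all genes) and 0 with only the groups compared (2.78%). It became 1 (CALB2) with genes above 0 in at least 4 libraries. Leaving out 1 tumor at a time gave 0 to 4, with 4 without tumor 2 of the 200 mg/kg group (11.8% of all genes). At 100 mg/kg, where 0 were called, untreated tumors in place of vehicle gave 1 (CALB2, 1.99% of all genes). Leaving out 1 tumor there gave 0 to 2, with 2 without tumor 4 of that group (2.23%). At 30 mg/kg the count of 0 became 1 with all 94 libraries (PDPN) and 1 with only the groups compared (CALB2). With untreated tumors it became 1 (CALB2, 0.353% of all genes). Where a count in this section has no share of all genes beside it, it cannot be set against that share. The leave-out range was 0 to 3 for the dose trend at 24 h and 0 to 1 for the difference of effects between 24 h and 3-6 h. It was also 0 to 1 for controls between 3-6 h and 1 h, and 0 to 1 for cage group 9. In cage group 9 the call of WT1 became 0 with all 94 libraries, 0 with quantile normalization and 0 with only the groups compared. The 2 calls between controls of 3-6 h and 24 h became 0 with all 94 libraries. With all 94 libraries, differences at 30 mg/kg and 24 h turned to -1.31 for MSLN, -0.94 for WT1, -0.10 for MUC16, -1.14 for PDPN and -0.66 for THBD. That setting brings in the library with 702 genes at 1 FPKM or more, in which these 5 genes are listed at 0. When single tumors were left out, ranges that crossed 0 were -0.0103 to 0.198 for WT1 and -0.0185 to 0.125 for PDPN at 30 mg/kg, -0.168 to 0.00201 for THBD at 100 mg/kg, and -0.230 to 0.198 for UPK3B at 200 mg/kg. The cause of the other changes was not tested. No paired analysis was possible because replicates were numbered in accession order within groups and the labels pair no tumors. Depth is unknown, and UPK3B near 1 FPKM is the least certain level.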

Other observations

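The 3 libraries left out of all comparisons had the following values. The 24 h tumor given 30 mg/kg with 702 genes at 1 FPKM or more had 1146 FPKM of CALB2 and 0 of the other 7 markers. The 24 h tumor given 100 mg/kg with 7196 such genes had 829 FPKM of CALB2, 168 of MSLN, 138 of PDPN, 24.8 of WT1, 13.9 of ITLN1 and 2.62 of MUC16, with THBD and UPK3B at 0. The 1 h tumor given 200 mg/kg with 8531 such genes had 431 FPKM of CALB2, 116 of MSLN, 9.88 of WT1 and 9.82 of THBD, with ITLN1 and UPK3B at 0.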
